A study of Mus musculus with 14 samples.

Results

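The nuclear lamina and envelope genes described here are 10 mouse genes, Lmna, Lmnb1, Lmnb2, Lbr, Emd, Lemd3, Tmpo, Banf1, Sun1 and Sun2, matched by gene name among the 55335 genes of a count table. They were chosen by the measured level of Lmna, which was higher after radioimmunotherapy with a non-targeting IgG than without treatment, so that contrast is given as a description with no test. All 10 genes passed the filter on low counts. The lamina is a meshwork of intermediate filament proteins, the lamins, on the inner face of the nuclear envelope. B-type lamins stay attached to the membrane through a lipid group, and A-type lamins, which give the nucleus much of its stiffness, are also found in the nuclear interior. Inner membrane proteins tether chromatin to the lamins, and SUN proteins pass force from the cytoskeleton through the envelope. In maturing blood cells the lamina is known to be remodelled, while cells of stiff tissues such as bone are known for high levels of A-type lamins.

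RNA was sequenced from 14 libraries of bone marrow cells sorted as Lineage-, CD45- and TdTomato+ from mice of genotype Cdh5 CRE Rosa26 TdTomato, in which Cre under the promoter of the endothelial cadherin gene Cdh5 switches on the red reporter. All groups, the untreated one included, carried these alleles. The groups were non-treated controls (untreated, 4 libraries), 500 cGy total body irradiation from a Cesium source (TBI, 5 libraries), 20 µCi of non-targeted IgG radioimmunotherapy (IgG RIT, 3 libraries) and 20 µCi of radioimmunotherapy targeted to CD45, the surface protein of blood cells (CD45 RIT, 2 libraries). The radionuclide of the study is astatine-211, an emitter of alpha particles, and treated mice were harvested 8 days after treatment. The ages of the mice are not given in the sources used here. Nothing in the labels says whether replicates came from separate mice, so p-values measure only the spread between these samples, which may be technical.

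Libraries held between 16412779 and 31077588 counts. Endothelial markers were low and uneven. Cdh5 itself had between 0 and 6 counts in each library and 0 in all RIT libraries, and the endothelial marker Pecam1 was at 26.8 to 65.3 CPM (counts scaled to the library size) in untreated libraries and had 4 to 6 counts in CD45 RIT libraries. Kdr, a VEGF receptor gene named after its values were seen, was at 115 CPM in CD45 RIT replicate 2 and at 2.43 CPM or less in all other libraries. Marker sums are given as CPM per total counts, without the scaling factors applied to single genes. The summed level of the 20 endothelial markers was 203 to 249 CPM in untreated, 85.3 to 182 CPM in TBI and 75.5 to 83.6 CPM in IgG RIT libraries, and 97.1 and 364 CPM in CD45 RIT replicates 1 and 2. Of the 20, the number at 0 counts in every library of the group was 0, 1, 4 and 6 in the same order. Of the 16 tested endothelial markers, 4 were called higher and 4 lower in CD45 RIT against untreated. Of the erythroid markers, 14 of 15 were in the table, and their sum was 8652 to 15566 CPM in untreated, 26984 to 177755 CPM in TBI and 135631 to 144113 CPM in IgG RIT libraries, and 192324 and 47436 CPM in CD45 RIT replicates 1 and 2. The sum of 16 stromal markers was 3363 to 8693 CPM in untreated, 1007 to 2361 CPM in TBI, 398 to 1228 CPM in IgG RIT, and 39612 and 60329.9 CPM in CD45 RIT libraries. The sum of 14 neutrophil markers was 10341 to 13010 CPM in untreated, 93.6 to 1226 CPM in TBI and 603 to 804 CPM in IgG RIT libraries. It was 5.27 and 14.8 CPM in CD45 RIT replicates 1 and 2. The libraries are therefore called sorted cells here, and the part of these markers in the results below was not tested. In bulk libraries, fewer cells of a type and less RNA per cell cannot be told apart. The CD45 RIT pair stood apart, correlating across genes at 0.673 on the log2 CPM scale where all other replicate pairs reached at least 0.906. The highest erythroid sum among TBI libraries was that of TBI replicate 6, which has library number 10 in the labels. This number lies between those of the untreated and other TBI libraries (1 to 9) and those of the RIT libraries (11 to 16). IgG RIT libraries have numbers 11 to 13 and CD45 RIT libraries 15 and 16. What the numbers stand for is not given. In either RIT group against untreated or TBI, and in CD45 RIT against IgG RIT, number and treatment cannot be told apart.

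**Figure D1:**
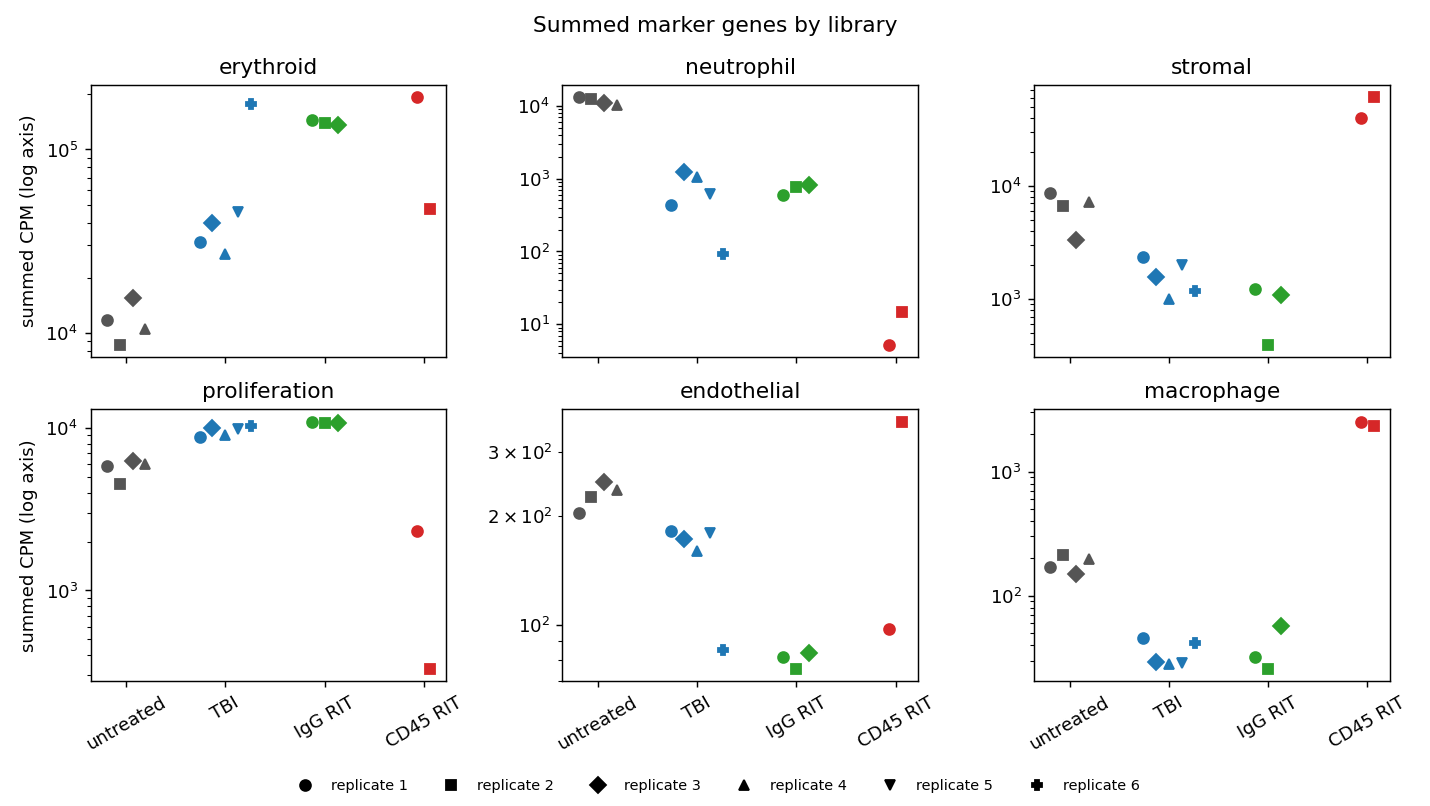
Summed CPM of marker genes per total counts, without scaling factors (log axis), in each library, by treatment group, with symbols for the replicate number. TBI replicate 6 lies with the IgG RIT libraries in the erythroid and endothelial panels. The CD45 RIT libraries have the highest sums of stromal and macrophage markers and the lowest of neutrophil and proliferation markers. The macrophage list was split: of 11 tested genes, 5 were called higher and 3 lower in CD45 RIT against untreated. Of its 12 listed genes, 3 had 0 counts in both CD45 RIT libraries.

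Among the 10 genes, external irradiation was followed by more Lmna, the gene of the A-type lamins, and CD45 RIT by more Lmna and less Banf1, which encodes a small protein that bridges DNA and the envelope. Set against TBI, CD45 RIT libraries also had less Lbr and Tmpo, which encode lamin-binding proteins of the inner membrane, and more Sun2. The counts of calls (edgeR quasi-likelihood test, Benjamini-Hochberg adjusted p under 0.05 over all 21509 tested genes) are read against the share of all genes called. In TBI against untreated 1 gene of the 10 was called, Lmna, where 4.31% of all tested genes were and 0.921% were called higher, and 3 of the 10 had groups that did not overlap, where 19.1% of all genes had. In CD45 RIT against untreated 2 were called, 1 higher and 1 lower, beside 33.1% of all genes (14.5% higher, 18.6% lower), and 5 did not overlap, beside 47.3%. In CD45 RIT against TBI 4 were called, 1 higher and 3 lower, beside 38.6% of all genes (19.6% higher, 19% lower), and 6 did not overlap, beside 45.8%. This last comparison shares no library with the contrast that chose the genes. The same split of 1 higher and 3 lower was called in CD45 RIT against IgG RIT, beside 37.7% of all genes (20.2% higher, 17.5% lower), and 8 did not overlap, beside 51.3%. Between IgG RIT and TBI the edgeR test called 0 of the 10, beside 0.242% of all genes, with 2 at an unadjusted p under 0.05. DESeq2 called 1 of the 10 there, beside 9.76% of all genes. In the same comparison 2 did not overlap, beside 16.8%. In IgG RIT against untreated, which chose the genes, 6 did not overlap, beside 43.1% of all genes. The share of the 10 genes called was thus close to the background in both comparisons of CD45 RIT with another treatment. In CD45 RIT against untreated it was 2 of 10 beside 33.1%, and with 10 genes such a gap is not read as a difference. The median log2 fold change of the 10 genes was 0.42 in TBI and -0.29 in CD45 RIT against untreated, where the median of all tested genes was -0.16 and -0.37, and it was -0.75 in CD45 RIT against TBI beside -0.39 for all genes.

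**Figure D2:**
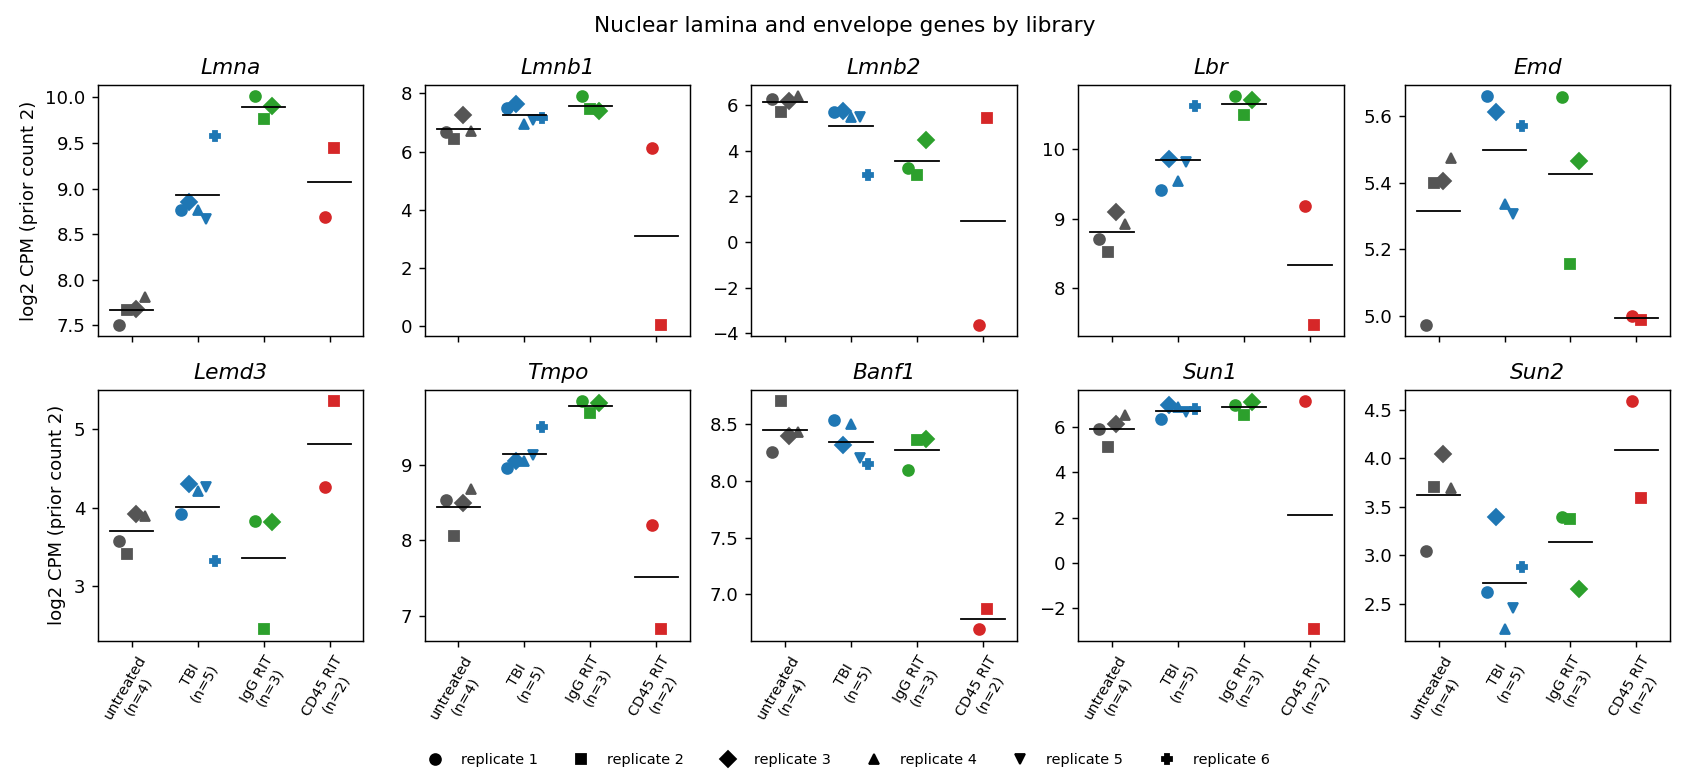
Level of each of the 10 genes as log2 CPM (prior count of 2) in each library, by treatment group, with symbols for the replicate number and a line at the group mean. Untreated libraries are lowest for Lmna, CD45 RIT libraries are lowest for Banf1, and the 2 CD45 RIT libraries are far apart for Lmnb1, Lmnb2 and Sun1.

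Lmna (ENSMUSG00000028063.15, GRCm38 chromosome 3, 88480147 to 88509956, minus strand) encodes lamins A and C, whose transcripts a count per gene does not separate. It was at 182, 203, 205 and 225 CPM in untreated replicates 1 to 4. TBI replicates 1, 3, 4, 5 and 6 had 434, 460.5, 435, 406 and 766 CPM, IgG RIT replicates 1 to 3 had 1031, 866 and 955 CPM, and CD45 RIT replicates 1 and 2 had 413 and 697 CPM. Each treated library lay above every untreated library, the IgG RIT libraries lay above all others, and TBI and CD45 RIT libraries overlapped. In TBI against untreated Lmna rose 2.45-fold, a log2 fold change of 1.30 (SE 0.22 and adjusted p 0.00598), with 5 of 5 TBI libraries above the highest untreated one. Without TBI replicate 6, which leaves only library numbers up to 9, the log2 fold change was 1.09 (adjusted p 0.00322). CD45 RIT against untreated gave a 2.72-fold rise, a log2 fold change of 1.45 (SE 0.26 and adjusted p 0.00141), and without scaling factors it was 0.77 (adjusted p 0.0152). Both comparisons use the untreated libraries that took part in the choice of the genes. IgG RIT libraries averaged 951 ± 82.3 CPM (SD, n = 3) against 204 ± 17.6 CPM (SD, n = 4) in untreated ones, a log2 fold change of 2.22 that the choice of the genes used. The erythroid sum was also higher in each treated library than in any untreated one. The part of these markers in the Lmna differences was not tested.

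Differences in Lmna between the treatments did not pass the test. CD45 RIT and TBI differed by 0.15 on the log2 scale (SE 0.26 and adjusted p 0.655), and the sign turned without scaling factors (-0.35), without the low-count filter (-0.02) and without CD45 RIT replicate 2 (-0.44). IgG RIT was 0.93 above TBI on the log2 scale (SE 0.22 and adjusted p 0.0823), with no overlap between the groups. Without TBI replicate 6 this difference was 1.13 and passed (adjusted p 0.00308). In that fit 9.44% of all genes were called, where 0.242% were called with all libraries. CD45 RIT was lower than IgG RIT by a log2 difference of -0.78 (SE 0.29 and adjusted p 0.0515), and the difference passed in 4 of 11 alternatives, with adjusted p from 0.00974 to 0.256 over all of them. It was -1.43 without CD45 RIT replicate 2 (adjusted p 0.0160). The IgG RIT libraries in these last comparisons are those in which Lmna was picked for being high.

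Lmnb1 (ENSMUSG00000024590.8, chromosome 18, 56707813 to 56753424, plus strand) and Lmnb2 (ENSMUSG00000062075.13, chromosome 10, 80901203 to 80918245, minus strand) encode the B-type lamins B1 and B2. Lmnb1 was at 101, 86.1, 151 and 105 CPM in untreated replicates 1 to 4, at 180.2, 200.2, 123, 136 and 142 CPM in TBI replicates 1, 3, 4, 5 and 6, and at 238, 174 and 167 CPM in IgG RIT replicates 1 to 3. The CD45 RIT pair had 69.5 CPM in replicate 1 and 0.962 CPM in replicate 2, from 1140 and 20 counts. TBI and untreated libraries overlapped, IgG RIT libraries lay above all untreated ones and both CD45 RIT libraries lay below all others. No tested contrast of Lmnb1 was called with all libraries. The log2 fold change was 0.50 in TBI against untreated (SE 0.69 and adjusted p 0.807), -1.65 in CD45 RIT against untreated (SE 0.96 and adjusted p 0.192) and -2.15 in CD45 RIT against TBI (SE 0.97 and adjusted p 0.0954). These values turn on the CD45 RIT pair. Without CD45 RIT replicate 1 the difference was -6.85 against untreated (adjusted p 7.51e-07) and -7.35 against TBI (adjusted p 3.90e-07). Without replicate 2 it was -0.71 (adjusted p 0.155) and -1.31 (adjusted p 0.0164). A call was gained in 1 of 12 alternatives against untreated, 4 of 13 against TBI and 3 of 11 against IgG RIT.

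Lmnb2 was at 77.4, 52.9, 72.3 and 84.0 CPM in untreated replicates 1 to 4. TBI replicates 1, 3, 4 and 5 had 51.7, 53.9, 44.9 and 45.0 CPM, while TBI replicate 6 had 7.68 CPM. IgG RIT replicates 1 to 3 had 9.50, 7.52 and 22.1 CPM. CD45 RIT replicate 1 had 0 counts and replicate 2 had 910 counts, or 43.8 CPM, so the 2 CD45 RIT libraries disagreed on Lmnb2 in the opposite order to Lmnb1. All IgG RIT libraries lay below all untreated ones, with a log2 fold change of -2.46 (SE 1.23) given here as a description. In the tested contrasts Lmnb2 was not called, with log2 fold changes of -0.82 in TBI against untreated (SE 0.98 and adjusted p 0.765), -1.71 in CD45 RIT against untreated (SE 1.39 and adjusted p 0.346) and -1.64 in IgG RIT against TBI (SE 1.15 and adjusted p 0.468). With the replicate of 0 counts as the only CD45 RIT library, Lmnb2 was called lower against untreated (adjusted p 4.12e-04) and TBI (adjusted p 3.89e-04), and with replicate 2 alone the difference from untreated was -0.72 (adjusted p 0.457).

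Ratios within a library do not depend on how libraries are scaled, and these are given per base of exon and without a test. The ratio of Lmna to Lmnb1 was 0.916, 1.20, 0.689 and 1.09 in untreated replicates 1 to 4 and 1.22, 1.17, 1.80, 1.51 and 2.74 in TBI replicates 1, 3, 4, 5 and 6. It was 2.20, 2.52 and 2.90 in the IgG RIT libraries, and 3.01 and 367 in the CD45 RIT libraries, the last resting on 20 counts of Lmnb1. Untreated and TBI libraries overlapped in this ratio, and IgG RIT and CD45 RIT libraries lay above all untreated ones. With the summed per-base levels of Lmnb1 and Lmnb2 as the denominator, the ratio was 0.517 to 0.841 in untreated, 0.984 to 2.64 in TBI and 2.14 to 2.65 in IgG RIT libraries, and 3.01 and 11.3 in CD45 RIT replicates 1 and 2. By this ratio TBI and untreated libraries did not overlap. The ratio of Lmnb2 to Lmnb1 was 0.331 to 0.552 in untreated, 0.0375 to 0.253 in TBI and 0.0276 to 0.0913 in IgG RIT libraries. It was lower in each TBI and IgG RIT library than in any untreated library, and in the CD45 RIT pair it was 0 and 31.4.

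**Figure D3:**
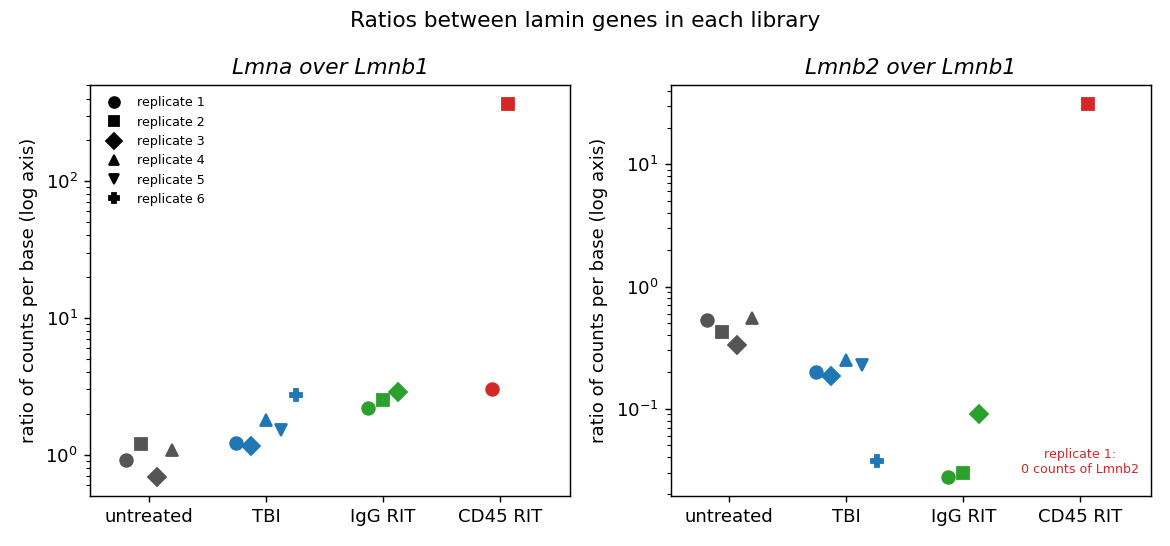
Ratio of counts per base of exon of Lmna to Lmnb1 (left) and of Lmnb2 to Lmnb1 (right) in each library, on log axes, with symbols for the replicate number. The Lmna ratio is 0.689 to 1.20 in untreated and 2.20 to 2.90 in IgG RIT libraries, and CD45 RIT replicate 1, with 0 counts of Lmnb2, is written in as text.

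Lbr (ENSMUSG00000004880.11, chromosome 1, 181815335 to 181843046, minus strand) encodes the lamin B receptor, an inner membrane protein that binds B-type lamins and heterochromatin and whose membrane part is a sterol reductase. Tmpo (ENSMUSG00000019961.17, chromosome 10, 91147571 to 91181315, minus strand) encodes the lamina-associated polypeptides 2, which carry a LEM domain, a short fold that binds the Banf1 protein, and whose isoforms a count per gene does not separate. Lbr was at 417, 368, 546 and 487 CPM in untreated replicates 1 to 4, at 682, 933, 745, 907 and 1577 CPM in TBI replicates 1, 3, 4, 5 and 6, and at 1741, 1439 and 1673 CPM in IgG RIT replicates 1 to 3. CD45 RIT replicates 1 and 2 had 583 and 178 CPM. Lbr was higher in each TBI and IgG RIT library than in any untreated one, TBI replicate 6 fell within the IgG RIT range, and both CD45 RIT libraries lay below all TBI libraries.

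In Tmpo the groups fell in the same order. It was at 371, 266, 359 and 410.0 CPM in untreated replicates 1 to 4, at 498, 530.2, 528, 561 and 724 CPM in TBI replicates 1, 3, 4, 5 and 6, and at 917, 826 and 903 CPM in IgG RIT replicates 1 to 3, with 294 and 113 CPM in CD45 RIT replicates 1 and 2. Again TBI and IgG RIT libraries did not overlap untreated ones, and both CD45 RIT libraries lay below every TBI library. Lbr and Tmpo correlated at a Pearson r of 0.962 over the 14 libraries on the log2 CPM scale, a description over libraries that share their treatment groups and marker levels.

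CD45 RIT against TBI, the comparison with no library in common with the choice of the genes, gave a fall of both. Lbr fell by 1.35 on the log2 scale (SE 0.43 and adjusted p 0.0265), a 2.55-fold difference, and Tmpo fell by 1.48 (SE 0.32 and adjusted p 0.00344), a 2.80-fold difference. Without CD45 RIT replicate 2 the Lbr difference was -0.90 and no longer passed (adjusted p 0.147), nor did it pass when only these 2 groups were fitted (adjusted p 0.11), and that of Tmpo was -1.11 (adjusted p 0.0170). Against IgG RIT, CD45 RIT was lower by 4.25-fold in Lbr (adjusted p 0.00465) and by 4.34-fold in Tmpo (adjusted p 6.57e-04). Fitted on these 2 groups alone, neither call held (adjusted p 0.0897 and 0.0612). In TBI against untreated neither passed, with log2 fold changes of 1.09 for Lbr (SE 0.33 and adjusted p 0.0832) and 0.69 for Tmpo (SE 0.24 and adjusted p 0.133). In IgG RIT against untreated the values were 1.83 for Lbr and 1.33 for Tmpo, as descriptions. The proliferation markers, 14 cell cycle genes, followed a like order of groups, with sums of 4515 to 6257 CPM in untreated, 8787 to 10273 CPM in TBI and 10682 to 10930 CPM in IgG RIT libraries, and 2325 and 329 CPM in CD45 RIT replicates 1 and 2. Their part in the Lbr and Tmpo differences was not tested.

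Because Lbr, Tmpo and Banf1 were called lower in CD45 RIT against TBI and Lmna was not, the promoter windows of these 4 genes are shown, from RefSeq on GRCm38.p6 (300 bases around a transcript start, most of them upstream of it, taking the furthest upstream window of each gene). The windows are Lbr at chr1:181842352-181842651, Tmpo at chr10:91171570-91171869, Banf1 at chr19:5366827-5367126 and Lmna at chr3:88503303-88503602, all on the minus strand, and each lies within the span of its gene. They are written 5′ to 3′ with matches to the letters CCAAT, the CCAAT box, in capitals. Both strands were searched.
Lbr: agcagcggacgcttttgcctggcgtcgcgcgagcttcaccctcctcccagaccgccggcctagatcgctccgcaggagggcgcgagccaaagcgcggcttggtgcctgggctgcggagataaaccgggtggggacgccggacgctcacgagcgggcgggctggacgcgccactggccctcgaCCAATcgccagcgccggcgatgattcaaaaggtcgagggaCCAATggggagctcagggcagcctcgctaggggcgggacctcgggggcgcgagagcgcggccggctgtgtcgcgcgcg
Tmpo: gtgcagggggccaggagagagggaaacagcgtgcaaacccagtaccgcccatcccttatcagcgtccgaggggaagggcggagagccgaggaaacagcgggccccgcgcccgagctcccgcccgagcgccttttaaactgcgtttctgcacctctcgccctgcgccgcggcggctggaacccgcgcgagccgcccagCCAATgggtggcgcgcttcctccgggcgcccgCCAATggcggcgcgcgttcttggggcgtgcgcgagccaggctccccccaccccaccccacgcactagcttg
Banf1: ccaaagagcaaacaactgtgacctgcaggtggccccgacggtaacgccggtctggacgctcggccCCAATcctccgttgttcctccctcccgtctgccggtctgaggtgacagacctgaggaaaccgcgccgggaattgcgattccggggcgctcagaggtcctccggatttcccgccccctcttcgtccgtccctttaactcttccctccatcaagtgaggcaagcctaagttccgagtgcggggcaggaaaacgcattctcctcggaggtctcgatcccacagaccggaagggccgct
Lmna: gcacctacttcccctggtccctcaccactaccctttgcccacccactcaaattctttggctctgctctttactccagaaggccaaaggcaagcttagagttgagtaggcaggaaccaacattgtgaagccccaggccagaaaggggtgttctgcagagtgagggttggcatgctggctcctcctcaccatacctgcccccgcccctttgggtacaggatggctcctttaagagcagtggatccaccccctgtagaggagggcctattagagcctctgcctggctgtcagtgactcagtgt
The Lbr and Tmpo windows hold 2 matches each, the Banf1 window holds 1 and the Lmna window holds 0. Lmna, Tmpo and Banf1 have 2 windows each, of which only the furthest upstream was searched. Windows with at least 1 match make up 38.02% and windows with at least 2 make up 12.14% of 27025 windows of 300 bases, 1 taken per gene in the same way. Of the other 5 member genes with a window, Sun1 and Sun2 had 2 matches, Emd and Lemd3 had 1 and Lmnb2 had 0. Other letters were searched in the same way. GGGCGG, the GC box, had 2 matches in Lbr, 4 in Tmpo, 1 in Banf1 and 1 in Lmna, and 35.92% of the 27025 windows had a match. TTTGAA had 1 match in Lbr and 0 in Tmpo, Banf1 and Lmna, and 18.15% of the windows had a match. All these matches describe these windows only, and their part in the levels of the genes was not tested.

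Banf1 (ENSMUSG00000024844.15, chromosome 19, 5364638 to 5367168, minus strand) encodes barrier-to-autointegration factor, which cross-links DNA, binds LEM domain proteins and helps to reassemble the envelope after mitosis. It was at 306, 417, 336 and 346 CPM in untreated replicates 1 to 4, at 372, 319, 362, 295 and 283 CPM in TBI replicates 1, 3, 4, 5 and 6, at 274, 328 and 331 CPM in IgG RIT replicates 1 to 3, and at 103 and 117 CPM in CD45 RIT replicates 1 and 2. The 2 CD45 RIT libraries were close to each other and lay below all 12 others, which overlapped between groups. Banf1 fell by 1.67 on the log2 scale in CD45 RIT against untreated (SE 0.20 and adjusted p 7.27e-05), a 3.19-fold difference. The log2 fold change was -1.57 against TBI (SE 0.19 and adjusted p 5.06e-05). Against IgG RIT the level was 2.83-fold lower (adjusted p 1.42e-04). These 3 calls held in every alternative run, including each left-out replicate. TBI and untreated differed by -0.11 (SE 0.14 and adjusted p 0.795).

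The other LEM domain genes were Emd and Lemd3. Emd (ENSMUSG00000001964.14, chromosome X, 74254687 to 74261548, plus strand) encodes emerin, the protein missing in a form of Emery-Dreifuss muscular dystrophy. It was at 31.3, 42.1, 42.3 and 44.4 CPM in untreated replicates 1 to 4 and at 50.4, 48.9, 40.3, 39.5 and 47.4 CPM in TBI replicates 1, 3, 4, 5 and 6. IgG RIT replicates 1 to 3 had 50.3, 35.6 and 44.1 CPM and CD45 RIT replicates 1 and 2 had 31.9 and 31.7 CPM. The CD45 RIT libraries lay below all TBI and IgG RIT libraries, and no contrast was called, the nearest being CD45 RIT against TBI at -0.51 (SE 0.25 and adjusted p 0.118).

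Lemd3 (ENSMUSG00000048661.14, chromosome 10, 120923413 to 120979332, minus strand) encodes an inner membrane protein that binds SMAD proteins and restrains TGF-beta and BMP signalling. It was at 11.8, 10.6, 15.0 and 14.8 CPM in untreated replicates 1 to 4 and at 15.1, 19.6, 18.5, 19.2 and 9.91 CPM in TBI replicates 1, 3, 4, 5 and 6. IgG RIT replicates 1 to 3 had 14.1, 5.38 and 13.98 CPM, and CD45 RIT replicates 1 and 2 had 19.1 and 40.8 CPM. Replicate 2 of CD45 RIT was above all other libraries, and replicate 1 lay within the TBI range. CD45 RIT exceeded IgG RIT by 1.43 on the log2 scale (SE 0.49 and adjusted p 0.0375), a call lost in 6 of 11 alternatives, among them without CD45 RIT replicate 2 (0.56, adjusted p 0.393) and without IgG RIT replicate 2 (1.10, adjusted p 0.105). Against untreated the difference was 1.20 (SE 0.46 and adjusted p 0.0604).

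Sun1 (ENSMUSG00000036817.14, chromosome 5, 139200637 to 139249840, plus strand) and Sun2 (ENSMUSG00000042524.14, chromosome 15, 79724070 to 79742536, minus strand) encode the inner membrane part of the LINC complex, the bridge between nucleus and cytoskeleton. Sun1 was at 59.97, 34.7, 69.9 and 92.4 CPM in untreated replicates 1 to 4, at 82.7, 125, 118, 102 and 112 CPM in TBI replicates 1, 3, 4, 5 and 6, and at 126, 94.2 and 137 CPM in IgG RIT replicates 1 to 3. CD45 RIT replicate 1 had 2333 counts, or 142 CPM, the highest level of any library, and replicate 2 had 1 count. No contrast of Sun1 was called, and a CD45 RIT group value for it describes neither library.

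Sun2 was at 8.15, 12.9, 16.4 and 12.9 CPM in untreated replicates 1 to 4, at 6.05, 10.4, 4.63, 5.39 and 7.25 CPM in TBI replicates 1, 3, 4, 5 and 6, at 10.4, 10.3 and 6.203 CPM in IgG RIT replicates 1 to 3, and at 24.0 and 12.0 CPM in CD45 RIT replicates 1 and 2. Both CD45 RIT libraries lay above all TBI and IgG RIT libraries and overlapped the untreated ones. Sun2 rose 2.66-fold in CD45 RIT against TBI, a log2 fold change of 1.41 (SE 0.43 and adjusted p 0.0218). This call was lost in 5 of 13 alternatives, among them without CD45 RIT replicate 1 (0.82, adjusted p 0.181).

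**Figure D4:**
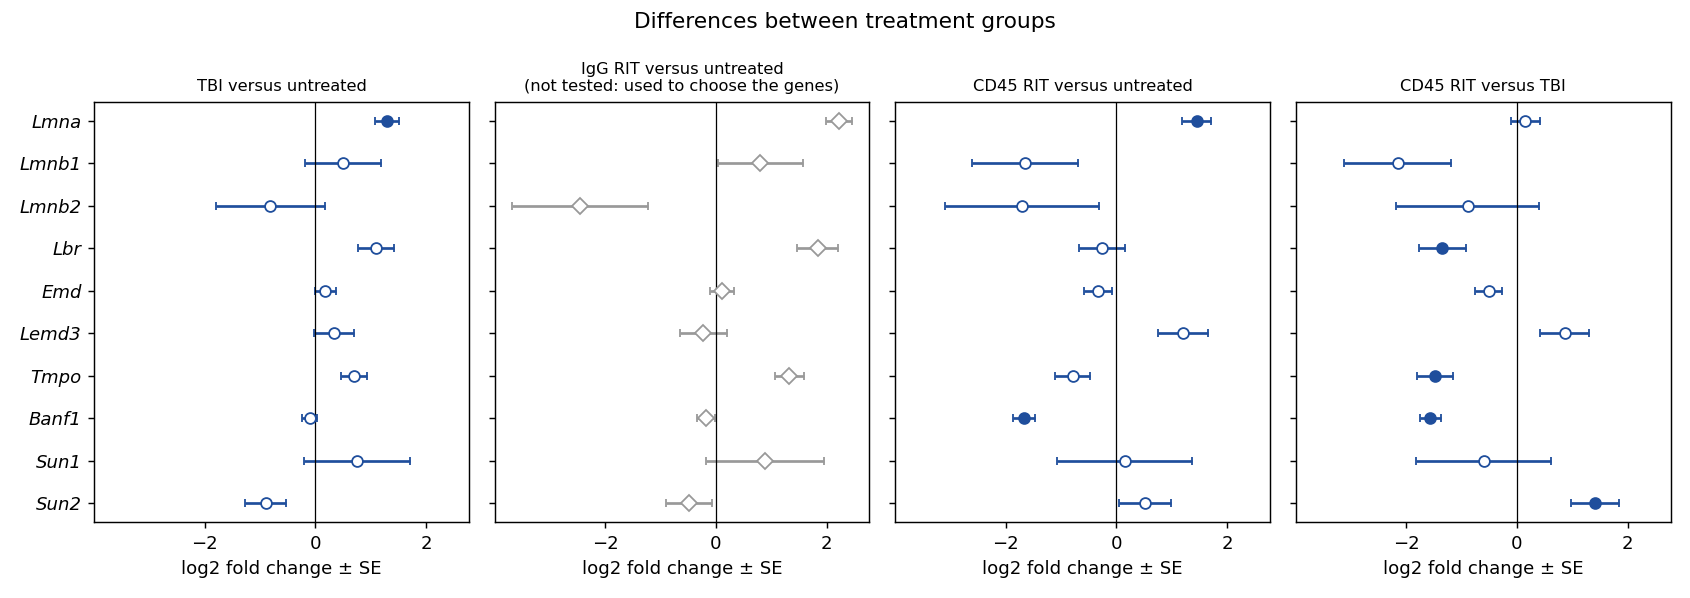
Log2 fold change with its SE for each of the 10 genes in 4 comparisons, where filled circles passed the test, open circles did not, and diamonds mark the untested contrast used to choose the genes. Lmna is the filled point in TBI against untreated, and Lmna and Banf1 are filled on opposite sides of 0 in CD45 RIT against untreated.

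The order of the genes by level was compared per kilobase of exon (RPKM). In untreated libraries Banf1 was highest at 235 ± 31.4 RPKM (SD, n = 4), followed by Lbr at 95.4 ± 16.4 RPKM. Lmnb1, Lmna and Tmpo came next at 37.4, 34.9 and 32.0 RPKM, with overlapping neighbours, and Lmnb2 and Emd, at 16.7 and 15.9 RPKM, also overlapped. Sun1, Lemd3 and Sun2 were lowest at 8.46, 2.71 and 2.32 RPKM, the last 2 overlapping.

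The upper end of this order differed between the groups. In TBI libraries Banf1 and Lbr overlapped at 218 and 204 RPKM, and Lmna came next at 85.7 RPKM, above Lmnb1 at 52.8 RPKM with no overlap. In IgG RIT libraries Lbr was highest at 340 ± 33.2 RPKM (SD, n = 3), then Banf1 at 208 RPKM and Lmna at 163 RPKM, none overlapping its neighbour. In CD45 RIT libraries Lmna, Lbr and Banf1 were highest at 95.1, 80.0 and 73.6 RPKM, and Lmna overlapped Lbr and Lbr overlapped Banf1. As a share of the summed RPKM of the 10 genes, Lmna made up 6.92% to 7.72% in untreated, 11.6% to 16.3% in TBI and 17.8% to 18.9% in IgG RIT libraries, and 20.1% and 42.8% in CD45 RIT replicates 1 and 2.

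A list of 62 other genes of the lamina and envelope was read alongside, and all 62 were tested. After TBI, 2 were called against untreated, both higher, where 4.31% of all tested genes were called, and the median log2 fold change of the list was 0.10 beside -0.16 for all genes. Narf, whose product binds prelamin A, was at 126, 80.3, 115 and 113 CPM in untreated replicates 1 to 4 and at 242, 298, 275, 348 and 693 CPM in TBI replicates 1, 3, 4, 5 and 6, a log2 fold change of 1.77 (SE 0.38 and adjusted p 0.0210). Rb1, the retinoblastoma gene, whose protein binds A-type lamins, was at 48.5, 31.9, 67.3 and 57.9 CPM in untreated and at 69.1, 112, 91.5, 131 and 201 CPM in TBI libraries, a log2 fold change of 1.23 (SE 0.31 and adjusted p 0.0439). For both genes TBI and untreated libraries did not overlap and TBI replicate 6 was highest.

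After CD45 RIT, 30 of the 62 were called against untreated, 9 higher and 21 lower, with a list median of -0.58 beside -0.37 for all genes. Of all tested genes 33.1% were called in this comparison, 14.5% higher and 18.6% lower. Nuclear pore genes made up 11 of the 21, since 11 of 18 fell and 1, Nup153, was called higher, at 114 ± 121 CPM (SD, n = 2) in CD45 RIT, where the pair lay far apart and overlapped the untreated libraries at 42.8 ± 7.91 CPM (SD, n = 4). Nup205, a scaffold subunit of the pore, had 0 and 2 counts in the CD45 RIT libraries against 24.0 to 74.4 CPM in untreated and 51.5 to 103 CPM in TBI libraries. The untreated mean over the pooled CD45 RIT level was a ratio of 1103 (95% Poisson interval 305 to 9106, counting error only). Of 12 further LEM domain, Banf1 and lamin partner genes, 3 rose and 6 fell. Of the 16 stromal markers 15 were called higher in this comparison, and of the 14 proliferation markers 3 were called lower. Their part in the calls of the list was not tested.

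The genes that rose after CD45 RIT included Syne2, which encodes nesprin-2, the outer membrane partner of SUN proteins. Syne2 was at 120 and 89.8 CPM in CD45 RIT replicates 1 and 2, above the 8.20 to 21.0 CPM of untreated and 2.37 to 14.2 CPM of TBI libraries, a log2 fold change of 2.90 against untreated (SE 0.80 and adjusted p 0.0156) and of 3.56 against TBI (SE 0.75 and adjusted p 0.00276). Chmp7, an ESCRT gene of envelope resealing, was at 73.3 and 224 CPM in CD45 RIT against 62.5 to 71.4 CPM in untreated libraries, a log2 fold change of 1.17 (SE 0.41 and adjusted p 0.0470). Zbtb7b, a transcription factor gene, had 6.77 and 38.9 CPM in CD45 RIT against 3.85 to 5.69 CPM in untreated libraries (log2 fold change 2.16, SE 0.60, adjusted p 0.0167). Tmem43, which encodes an inner membrane partner of emerin, was at 122 and 137 CPM in CD45 RIT against 24.8 to 46.3 CPM in TBI libraries (log2 fold change 1.78, SE 0.31, adjusted p 7.93e-04). Syne3, the gene of nesprin-3, had 1 count in each CD45 RIT library, and the TBI mean over the pooled CD45 RIT level was a ratio of 251 (95% Poisson interval 69.4 to 2071). Nemp2, another inner membrane gene, had 7 and 1 counts, with a ratio of 43.7 (22.2 to 101) for TBI over CD45 RIT. In CD45 RIT against TBI 26 of the 62 were called, 6 higher and 20 lower, beside 38.6% of all genes (19.6% higher, 19% lower), with a list median of -0.90 beside -0.39 for all genes.

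Out of 8043 protein-coding genes whose mean log2 CPM was 3 or more, those most like Lmna over the 14 libraries (Pearson r of log2 CPM) were Mbd2 at 0.983, Gmppb and Cr1l at 0.967, Crip2 at 0.964 and Ormdl3 at 0.963. Mbd2, which encodes a reader of methylated DNA, was at 144 to 172 CPM in untreated, 213 to 307 CPM in TBI, 328 to 359 CPM in IgG RIT and 261 to 314 CPM in CD45 RIT libraries. The genes most like Lmnb1 were Sipa1 at 0.994, Mphosph9 at 0.993, Itga4 at 0.992, and Ncaph and Prex1 at 0.991. Of these 5, Prex1 had 0.770 CPM in the lower of the CD45 RIT libraries and the others had less. Lmnb1 itself had 0.962 CPM in CD45 RIT replicate 2, and r without that library was not computed. Sipa1, a gene of a GTPase activator, ranged from 89.0 to 159 CPM in untreated and from 270.1 to 282 CPM in IgG RIT libraries. Lmnb1 and Sun1, the member pair with the highest r, reached 0.965, and both were near 0 in CD45 RIT replicate 2. Lmna correlated with Lmnb1 at -0.06 and with Lmnb2 at -0.35 over the same libraries. These values include CD45 RIT replicate 2, with 20 counts of Lmnb1, and CD45 RIT replicate 1, with 0 counts of Lmnb2. The r of Lmna with either gene was not computed without them.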

How the data were processed

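The authors deposited whole-number counts per gene for 55335 genes in 14 libraries, made per the labels' protocols with SMART-Seq v4 and Nextera XT kits. The submitters' processing notes name STAR 2.7.7a, FastQC 0.11.9, edgeR 3.36.0 and the build hg38, yet the gene identifiers are mouse. Coordinates were compared with GENCODE M21 (GRCm38), where 54587 identifiers matched, 54587 of them with the same coordinates, so GRCm38 is given. The counter, and whether strand was used, are not given in the sources used here. Lbr, Banf1, Tmpo, Sun1, Sun2 and Emd share exonic bases with another gene (69 to 440 bases), where reads may be split or, without strand, cannot be told apart. Amplified reads carry no molecular identifiers, so intervals cover counting error only.

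The analysis used edgeR 4.0.16 under R 4.3.3. The filterByExpr step (minimum count 10, minimum total 15) left 21509 genes, TMM gave the scaling, and all 14 libraries entered 1 robust quasi-likelihood fit with a term for each group. A Benjamini-Hochberg adjusted p under 0.05 was called. The SE is the log2 fold change over the square root of F. CPM and RPKM of single genes use TMM-scaled library sizes, and RPKM the deposited gene lengths. Marker sums are CPM per total counts without TMM factors, which ran from 0.704 to 1.23, so they are not on the scale of single genes. The named genes are the 10 members, Cdh5, Pecam1 and Ptprc, up to 3 called partner genes per direction in 3 comparisons with the largest change and no overlap between groups, and the 5 genes most like Lmna and Lmnb1. Nup153 and Kdr were named after their values were seen. Ptprc, the gene of CD45, had 1 and 662 counts in CD45 RIT replicates 1 and 2, or 0.0610 and 31.9 CPM. It was at 47.2 to 85.7 CPM in untreated, 5.10 to 48.3 CPM in TBI and 4.52 to 14.2 CPM in IgG RIT libraries. The members and lists were chosen with earlier results of these data known. Alternatives were RLE factors, no scaling, no filter, a replicate block, DESeq2 1.42.0, 2 groups alone and each replicate left out. Tested on simulated counts with 200 changed genes, the fit called 89 with the right sign and 2 falsely in TBI against untreated (20737 genes), and 60 and 1 in CD45 RIT against untreated (20739 genes). Depth ran from 16412779 to 31077588 counts per library, and 3 counts were 0.0786 to 0.215 CPM.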

Additional observations from a re-analysis of the deposited data

Results flagged for a closer look

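In groups of 4 or 5 libraries, 3 values stood far from the rest of their group by Dixon's test at the 95% level, out of 20 groups of values examined, where chance gives about 1 in 20. TBI replicate 6 had 766 CPM of Lmna, where the other TBI libraries had 406 to 460.5 CPM. The same library had 7.68 CPM of Lmnb2, where the other TBI libraries had 44.9 to 53.9 CPM. Both values lie nearer to the IgG RIT libraries, at 866 to 1031 CPM of Lmna and 7.52 to 22.1 CPM of Lmnb2, than to the other TBI libraries, and the erythroid sum of TBI replicate 6, 177755 CPM, is above the 135631 to 144113 CPM of IgG RIT. The part of the erythroid markers in these values was not tested. Untreated replicate 1 had 31.3 CPM of Emd, where the other untreated libraries had 42.1 to 44.4 CPM.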

How the results depend on the processing

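Banf1 kept its call in CD45 RIT against untreated, TBI and IgG RIT under every alternative, as did Lmna in CD45 RIT against untreated. In TBI against untreated the number of member genes called was 1 and became 3 with DESeq2 and 4 with only the 2 groups. It was 0 with the replicate block, where Lmna had 1.15 (adjusted p 0.0943), and it stayed 1 with any replicate left out. Of all genes 4.31% were called in the main fit, 11.6% with DESeq2 and 17.5% with only the 2 groups. With the replicate block 0.177% were called, and 2% to 3.85% with a replicate left out. In CD45 RIT against untreated the 2 calls became 5 without scaling factors and 2 to 7 with a replicate left out. In CD45 RIT against TBI the 4 calls became 2 with the replicate block and 2 with only the 2 groups, Lbr and Sun2 being lost in both, and 4 to 6 with a replicate left out. In CD45 RIT against IgG RIT the 4 calls became 1 with only the 2 groups and 3 to 6 with a replicate left out. The share of all genes called moved too. In CD45 RIT against untreated it was 33.1%, then 36.7% without scaling factors and 27.6% to 30.6% with an untreated library left out. In CD45 RIT against TBI 38.6% became 17.5% with the replicate block and 30.7% with only the 2 groups. In CD45 RIT against IgG RIT 37.7% became 12.9% with only the 2 groups. IgG RIT against TBI had 0 member calls, 1 with DESeq2 and 0 to 1 with a replicate left out, the 1 being Lmna without TBI replicate 6. Of all genes 0.242% were called there in the main fit, 9.76% with DESeq2 and 9.44% without TBI replicate 6. The median log2 fold change of the members in IgG RIT against untreated, 0.46, was -0.068 without scaling factors and 0.75 with only the 2 groups. The log2 ratio of Lmna to Lmnb1 counts in untreated libraries, 0.91, was 0.18 with Lmnb1 plus Lmnb2 as the denominator, which holds more counts. Sun1 in CD45 RIT against untreated turned from 0.15 to -10.26 without CD45 RIT replicate 1 (1.11 without replicate 2), and Lmnb2 in CD45 RIT against IgG RIT from 0.75 to -11.46 without CD45 RIT replicate 2 (1.74 without replicate 1). Beyond fewer samples or genes, the cause was not tested. Scaling moved the median of all genes in CD45 RIT against untreated from -0.37 with TMM to -1.08 without factors.

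Replicate numbers did not pair the libraries: of 13 same-numbered pairs, 1 had deviations that correlated over 0.1 (range -0.0896 to 0.139). With 2 CD45 RIT libraries that disagree on Lmnb1, Lmnb2 and Sun1, leaving 1 out assumes that the other varies like the remaining groups. Simulated 4-fold changes were called for 22.3% of genes in TBI and 8.42% in CD45 RIT against untreated, so changes of this size could be missed there. Only 200 genes were changed in each simulation, while 33.1% of all genes were called in the data in CD45 RIT against untreated. The adjusted p depends on how many genes change, so these shares do not give the share of changes missed in the data.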
